A study of Mus musculus with 3 samples.

Results

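Punctate H3K27me3 domains that share H3K4me3 were examined in cultured adult neural stem cells. They are short patches of the Polycomb mark whose span, small gaps included, takes in part of a region of the promoter mark. H3K27me3 regions on chromosomes 1 to 19 were merged over gaps of up to 3000 bp. A domain was kept when it spanned 1000 bp or more but under 5000 bp and shared at least 1 bp with an H3K4me3 region. The domains were thus chosen by measured values, their H3K27me3 span and their overlap with H3K4me3, and neither is a finding here. The rule found 2199 domains, built from 3563 H3K27me3 regions, among 52317 domains built from 115609 regions. They held 3.14% of all autosomal base pairs in H3K27me3 regions. The comparison set was the 13202 domains of the same span with no H3K4me3.

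The cells came from the subventricular zone of wild-type (WT) male C57BL/6 mice and were grown as neurospheres, floating clusters of neural stem cells and their early descendants, on low-attachment plates. Chromatin immunoprecipitation followed by sequencing gave 1 H3K27me3 library and 1 H3K4me3 library, and the authors deposited a list of called regions for each. An input DNA sample was not analysed here. The sources used here do not say how many animals or cultures went into a library. With 1 library per mark there was no replicate error and no test between cultures. Every comparison below is therefore a description of these 2 lists. Intervals are 95% intervals that cover counting error only, and they are too narrow where neighbouring domains are alike.

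H3K27me3 is written by Polycomb repressive complex 2, which is drawn to unmethylated CpG-rich promoters and helps to keep developmental genes silent. H3K4me3 is written by the SET1 and MLL complexes at promoters that are active or held ready for activity. Promoters with both marks are called bivalent and are best known from embryonic stem cells, where many belong to regulators of later lineages. In neural stem cells such promoters include genes of other lineages and of later neuronal stages. The libraries came from many cells, so a shared place can also be a mixture of cells with either mark. Which genes lie at the domains was not analysed here, because no gene positions on the mm9 build of the files were at hand, and no sequence is shown for the same reason.

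Sharing with H3K4me3 differed with span in the whole list. Of all autosomal domains, 11.8% shared H3K4me3. The share was 14.3% of the 15401 domains from 1 to under 5 kb, against 3.88% of the domains under 1 kb and 32.1% of those of 5 kb or more. Within the punctate range it was 9.96% (95% interval 9.17 to 10.8%) at 1 to under 1.5 kb and 15.9% (14.4 to 17.5%) at 1.5 to under 2 kb. From 2 kb upward it stayed between 14.2% and 18.2% in each class of 500 bp. A longer domain has more room to meet an H3K4me3 region, and the part of that in the rise was not tested.

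The span limits cut through a continuous range of sizes. The shortest domain kept spanned 1000 bp and shared 969 bp on chromosome 1 (46481919 to 46482918). A domain of 999 bp on chromosome 17 (43705109 to 43706107), which lay wholly in its H3K4me3 region, fell just outside. At the upper limit, a domain of 4996 bp on chromosome 1 (169731830 to 169736825) was kept, and one of 5002 bp on chromosome 4 (34007448 to 34012449) was not. The smallest shared part was 5 bp, and 48 domains shared under 200 bp. In the comparison set the closest H3K4me3 region was 2 bp away, and 335 of the 13202 domains lay within 1 kb of one.

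Nearly every domain met a single H3K4me3 region. There were 2153 domains with 1 such region, 44 with 2 and 2 with 3, and no H3K4me3 region gave the largest shared part of more than 1 domain. The domains with several are described with the region that shared most.

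The distance between the centres of the marks is bounded by the rule, since they must touch. The median distance between the domain centre and the H3K4me3 centre was 525.5 bp (95% interval 490.5 to 561.5 bp, quartiles 206 and 1066 bp). It was up to 250 bp in 29.2% of the domains, up to 1000 bp in 72.5% and up to 2000 bp in 93.6%. Shifts to the higher and to the lower coordinate were about equally common, at 1079 and 1119 domains. The largest distance at which a domain and an H3K4me3 region can still touch is the sum of their widths divided by 2. As a share of that distance the offset had a median of 24.1%. It was below 25% in 51.6% of the domains, between 25% and 50% in 27.3%, between 50% and 75% in 14.5% and above that in 6.59%. The domain centre lay in H3K4me3 in 69.9% of cases, and the H3K4me3 centre lay in the domain in 83.9%.

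The extremes show what these offsets look like. On chromosome 12 a domain of 1307 bp (100882858 to 100884164) and an H3K4me3 region of 973 bp had the same centre. Domains of 3041 and 2029 bp on chromosome 1 (194013352 to 194016392 and 82582462 to 82584490) were centred within 1 bp of their H3K4me3 regions. All 3 held their H3K4me3 region whole. At the other end were domains at the margin of very broad H3K4me3 regions. On chromosome 11 a 4258 bp domain (69233834 to 69238091) shared 457 bp with an H3K4me3 region of 13624 bp, with the centres 8484 bp apart. A 4047 bp domain on chromosome 19 (56791162 to 56795208) shared 29 bp with a region of 7319 bp at an offset of 5654 bp. On chromosome 8 a 2944 bp domain (91568545 to 91571488) shared 1368 bp with a region of 9999 bp at an offset of 5103.5 bp.

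**Figure D1:**
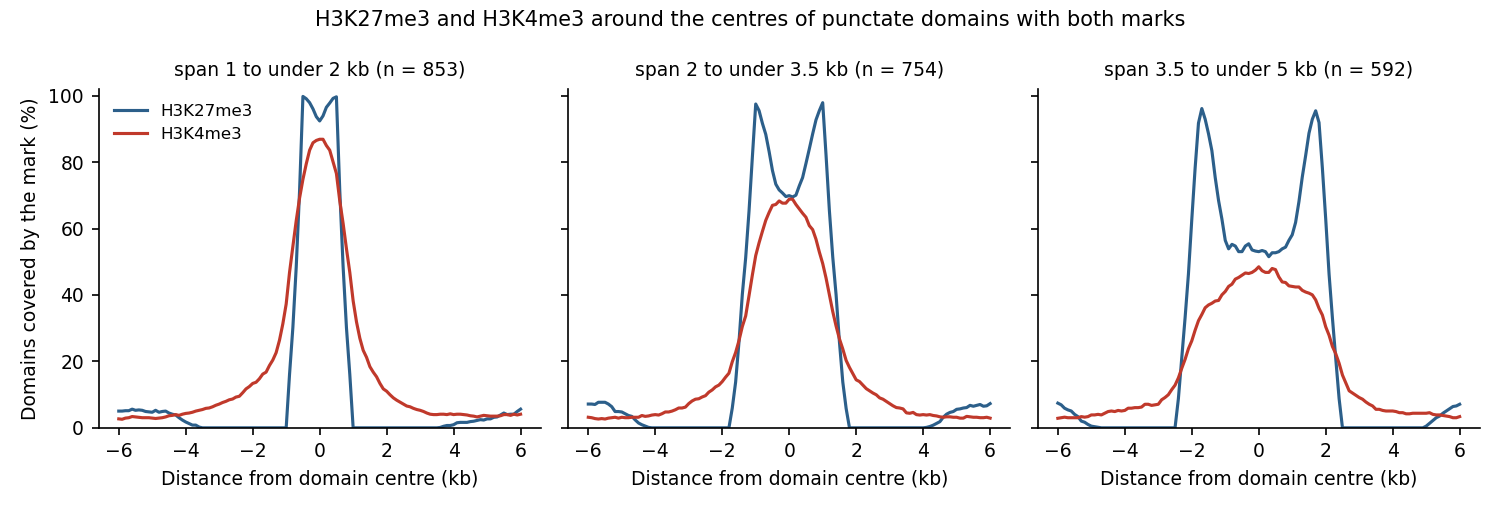
Share of the domains covered by H3K27me3 (blue) and H3K4me3 (red), in percent, at each distance in kb from the domain centre, for domains spanning 1 to under 2 kb (n = 853), 2 to under 3.5 kb (n = 754) and 3.5 to under 5 kb (n = 592). H3K4me3 peaks in the middle of all 3 panels and covers 86.9%, 68.8% and 48.5% of the centres. Both shapes follow in part from the rule, since a domain must touch H3K4me3 and always begins and ends with H3K27me3.

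H3K4me3 width varied little with the span of the domain. The domains had a median span of 2370 bp (quartiles 1546 and 3603.5 bp), while the median H3K4me3 width at the same places was 1828 bp (1279.5 and 2538.5 bp). The domain was the wider mark at 1404 places and H3K4me3 at 795. This tally follows in part from the rule, which limits the span and merges H3K27me3 regions only. In domains from 1000 to under 1500 bp the median span was 1213 bp and the median H3K4me3 width 1669 bp. In domains from 4500 to under 5000 bp these medians were 4711 and 1839 bp. Which mark is the wider apart from the rule was not tested. The median H3K4me3 width stayed between 1669 and 1996 bp in all 8 span classes of 500 bp, while the span ran over the whole range from 1 to 5 kb. Spearman's rho between span and H3K4me3 width was 0.04 over the 2199 domains, given as a description, since both come from the same pair of libraries and the same rule.

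The shared part took up less of a long domain than of a short one. Its median was 1284 bp (quartiles 987.5 and 1803.5 bp), which was 60.8% of the domain and 86.6% of the H3K4me3 region. In domains from 1 to under 1.5 kb the shared part took 95.1% of the domain and 62.1% of the H3K4me3 region. In domains from 4.5 to under 5 kb it took 32.0% of the domain and 99.6% of the H3K4me3 region. The shared part cannot be wider than the H3K4me3 region, whose median width changed little with span. The fall in the share of the domain thus follows in part from the span classes. Shares of the domain are of its whole merged span, in which base pairs in gaps between H3K27me3 regions are counted. H3K4me3 in such a gap also counts as shared, so the shares of the H3K4me3 region include places with no called H3K27me3. In domains of several regions, 28.6% of the base pairs in gaps lay in H3K4me3. Only 4.29% of the domains with H3K4me3 from 4.5 to under 5 kb were 1 unbroken region. At least 50% of both the domain span and the H3K4me3 region was shared in 1130 domains (51.4%, 95% interval 49.3 to 53.5%).

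**Figure D2:**
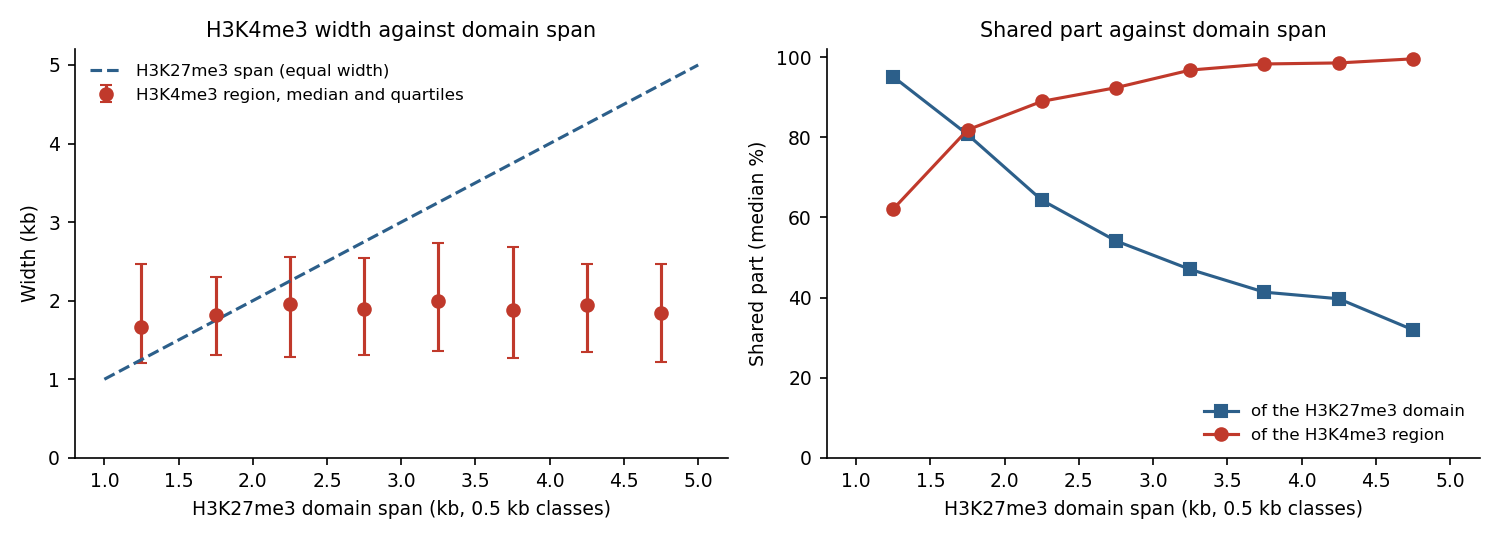
Left, median width in kb of the H3K4me3 region at punctate domains, with quartiles as bars, against domain span in classes of 0.5 kb; the dashed line marks equal width. Right, median shared part in percent of the H3K27me3 domain (blue squares) and of the H3K4me3 region (red circles) in the same classes. H3K4me3 in gaps inside a merged domain counts as shared. The share of the domain falls to 32.0% and that of the H3K4me3 region reaches 99.6% in the longest class.

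Most domains were staggered against their H3K4me3 region, with each mark reaching past the other on 1 side. This held for 1156 of the 2199 (52.6%, 95% interval 50.5 to 54.7%). The H3K27me3 arm was the longer, with a median of 949 bp beyond H3K4me3 against 364 bp of H3K4me3 beyond H3K27me3. H3K27me3 arms here are parts of the merged span and can include gaps, as only 45.3% of staggered domains were 1 region. H3K4me3 regions were not merged, and the part of this in the difference was not tested. H3K4me3 lay inside the domain in 610 cases (27.7%, 25.9 to 29.6%). The centres were 350 bp apart there by median, against 856.75 bp in staggered domains. This follows in part from the classes, since a region inside a domain cannot be shifted past either end. The H3K27me3 arms on the sides of the enclosed H3K4me3 had medians of 1227.5 bp for the longer and 273 bp for the shorter. H3K27me3 lay inside H3K4me3 in 387 cases (17.6%, 16.1 to 19.2%), with H3K4me3 arms of 647 and 177 bp. The last 46 domains (2.09%) had several H3K4me3 regions.

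The arrangements differed in H3K4me3 score and in H3K27me3 score. The deposited score has no stated scale. Many regions of both lists stand at 3100. A region at or over that value is said to have the top score, and scores are compared only within a list. Where H3K4me3 lay inside the domain, 20.3% of the H3K4me3 regions were at the top score (95% interval 17.3 to 23.7%), their median width was 1359.5 bp, and the median of the highest H3K27me3 score in the domain was 671. Where H3K27me3 lay inside H3K4me3, 83.2% were at the top score (79.2 to 86.6%), the median H3K4me3 width was 2439 bp, and the median H3K27me3 score was 279. Staggered domains lay between these, with 48.9% and 322. Span moves with the arrangement, with medians of 3260.5 bp for the first, 1385 bp for the second and 2350.5 bp for staggered domains, and its part in these differences was not tested. The H3K4me3 widths follow in part from the classes, since a region that holds a domain must be the wider and one inside it the narrower. Top-scoring H3K4me3 regions were wider than the others, with medians of 2548 and 1318 bp. The part of H3K4me3 width in the score contrast was not tested.

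The highest-scoring domains of each arrangement give these forms a place. Of the 2199 domains, 156 were at the top score. Domains tied at 3100 were ordered by larger shared part, which favours long domains and large overlaps. With no stated scale, the order among domains at or over 3100 is one of deposited values only. Among staggered domains the highest H3K27me3 score was 3218, in a domain of 2122 bp on chromosome 18 (10323966 to 10326087) that shared 86.3% of an H3K4me3 region of 1973 bp. The next were domains of 4259 bp on chromosome 1 (180457392 to 180461650) and 4520 bp on chromosome 8 (73384969 to 73389488), both at 3100. With H3K4me3 inside, they were a 1309 bp domain on chromosome 5 (145521602 to 145522910) at 3210, a 3744 bp domain on chromosome 2 (63019871 to 63023614) at 3121 and a 3240 bp domain on chromosome 13 (74665444 to 74668683) at 3100. The H3K4me3 region of the chromosome 13 domain filled 98.5% of it, so the marks were close to coincident there.

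With H3K27me3 inside, the highest deposited score of all 2199 domains, 3230, was in a 2258 bp domain on chromosome 10 (102829728 to 102831985) within 2748 bp of H3K4me3. It was followed by a 3961 bp domain on chromosome 5 (48373963 to 48377923) and a 1584 bp domain on chromosome 7 (89919393 to 89920976), both at 3100. The domains with several H3K4me3 regions were headed by places on chromosome 14 (52356996 to 52361484), chromosome 5 (74038934 to 74043738) and chromosome 17 (72949110 to 72954069). All 3 were at 3100, with ties ordered by larger shared part, and spanned at least 4489 bp.

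The H3K27me3 score was close in domains with top-scoring and with lower-scoring H3K4me3. H3K4me3 was at the top score in 1024 domains and below it in 1175. The median H3K27me3 score was 384 (95% interval 353 to 429) with top-scoring H3K4me3 and 370 (331 to 406) with H3K4me3 below the top score. Median spans were also close, at 2335.5 and 2401 bp. The H3K4me3 regions themselves were 2548 bp wide at the top score and 1318 bp below it, by median.

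About as many domains were 1 unbroken H3K27me3 region as were several. Single regions made up 1060 of the 2199 domains with H3K4me3 (48.2%, 95% interval 46.1 to 50.3%), against 5798 of the 13202 without it (43.9%, 43.1 to 44.8%). The domains with H3K4me3 were also the longer set, with a median span of 2370 bp against 2054 bp. With the comparison set weighted to the same spans, its share of single regions was 34.4%. The direction turned when H3K27me3 regions with a score under 100 were left out (a difference of -3.41 percentage points), and with a merging gap of 1000 bp the difference was 1.44 points (95% interval -0.41 to 3.28), against 4.29 points here.

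In domains of several regions, H3K4me3 mostly sat on some of the pieces and not on others. Of the 1139 such domains, 290 (25.5%) had H3K4me3 on every piece and 824 on some of them. In 25 (2.19%) H3K4me3 lay only in the gap between pieces and touched no called H3K27me3 region. H3K4me3 covered 52.1% of the base pairs in the pieces and 28.6% of those in the gaps between them.

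Where a domain had 2 pieces and H3K4me3 touched 1 of them, the touched piece usually had the higher score. There were 639 such domains. The touched piece had the higher score in 491 (76.8%, 95% interval 73.4 to 79.9%) and was the wider in 492. Its median score was 268, against 90.3 for the untouched piece, and its median width was 1237 bp against 768 bp. A wider piece has more room to be touched, and the part of width in the score difference was not tested.

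Domains with H3K4me3 carried higher H3K27me3 scores than domains of the same span without it. The median of the highest score in a domain was 377 (95% interval 354 to 404) with H3K4me3 and 150 (148 to 152) without. The difference of the medians was 228 (204 to 255), and it was positive on all 19 autosomes. The comparison medians hardly moved between autosomes, from 143 to 155.5, while those of domains with H3K4me3 ran from 282 on chromosome 11 to 710 on chromosome 14. The medians with H3K4me3 rest on fewer domains per autosome and on more widely spread scores (quartiles 173 and 947, against 105 and 229). The part of this in their range was not tested. Outside a crowded stretch described below, the chromosome 14 median was 465. The top score was reached by 156 domains with H3K4me3 (7.09%, 6.09 to 8.24%) and by 30 without (0.227%, 0.159 to 0.324%). Weighting the comparison set to the same spans left its median at 151. Whether reads common to both libraries add to the score at shared places was not tested, since no read counts or input signal were used here.

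Domains with H3K4me3 stood farther from other H3K27me3. The median gap to the nearest other domain was 10202 bp (95% interval 9517 to 10939 bp), against 6537.5 bp (6409 to 6686 bp) for the same span without H3K4me3. The difference of 3664.5 bp (2964 to 4413 bp) had the same sign on all 19 autosomes. The gap is over 3000 bp in every domain by construction. The farther of the neighbours on either side was 43072 bp away by median, against 20156.5 bp. No other domain lay within 10 kb of 1113 domains with H3K4me3 (50.6%, 48.5 to 52.7%) and of 4471 without it (33.9%, 33.1 to 34.7%). At 50 kb these shares were 11.5% (10.2 to 12.9%) and 6.88% (6.46 to 7.32%), and at 100 kb they were 3.41% and 2.34%.

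**Figure D3:**
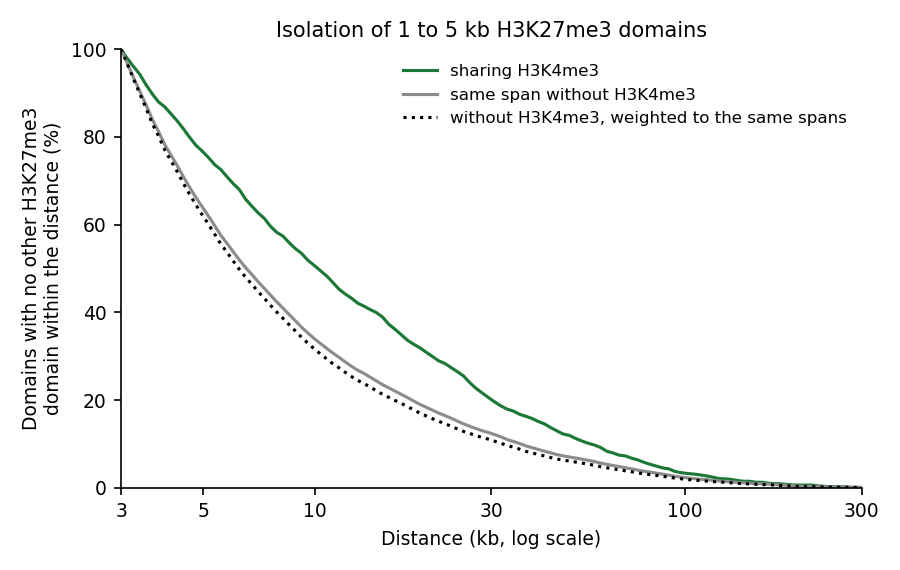
Share of domains, in percent, with no other H3K27me3 domain within the distance on the x axis (kb, log scale), for punctate domains with H3K4me3 (green), those of the same span without it (grey) and the set without H3K4me3 weighted to the same spans (dotted). At 10 kb the curves stand at 50.6%, 33.9% and 31.5%.

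Isolation went together with less H3K27me3 in the wider surroundings. From 5 to 10 kb beyond the domain ends, 7.30% of base pairs lay in H3K27me3 regions around domains with H3K4me3, against 12.6% around those without. The values were 7.33% against 13.1% at 10 to 20 kb and 8.40% against 12.1% at 50 to 100 kb. The nearest other domain was itself under 1 kb for 1193 domains with H3K4me3 (54.3%) and for 47.2% of those without. That neighbour shared H3K4me3 in 14.6% (95% interval 13.2 to 16.2%) and in 11.8% (11.2 to 12.3%), beside 11.8% of all autosomal domains. Neighbours that were again punctate domains with H3K4me3 were found in 135 cases (6.14%), beside 2199 such domains among all 52317 on the autosomes. This share was not computed for the domains without H3K4me3.

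**Figure D4:**
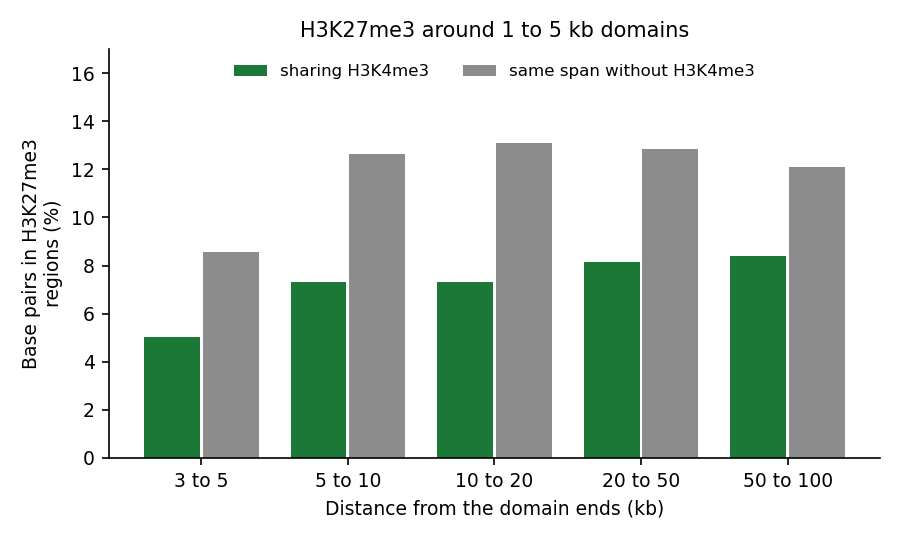
Percent of base pairs in H3K27me3 regions at 3 to 100 kb beyond the ends of punctate domains, with H3K4me3 (green) and without it (grey). In every ring the green bar is the lower, for example 7.30% against 12.6% at 5 to 10 kb.

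The gap was longer with H3K4me3 at each number of other H3K4me3 regions nearby. Both sets had a median of 1 other H3K4me3 region within 50 kb, and 40.7% and 42.0% had none. Among the domains with none, the median gap was 16705 bp with H3K4me3 and 8410.5 bp without. With 4 or more such regions nearby the gaps were shorter, at 6580.5 and 5361.5 bp, and the difference of 1219 bp (95% interval 419 to 1834 bp) was smaller. It was also longer in each class of H3K27me3 score. The quartiles of the comparison set's scores gave 4 classes. With H3K4me3 and without it, the medians were 11197 and 7079.5 bp in the lowest class and 8413 and 6944 bp in the second. They were 9398 and 6704 bp in the third class and 11021 and 5599 bp in the highest. The difference was smallest in the second class, at 1469 bp (95% interval 292 to 2638 bp). Both the score classes and the classes by nearby H3K4me3 were chosen after the values were seen.

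Arrangement and isolation moved together as well. Domains inside an H3K4me3 region had a median gap of 16396 bp (95% interval 13029 to 19789 bp). Staggered domains had 10051.5 bp (9231 to 10918 bp), and domains with H3K4me3 inside had 8035.5 bp (7189 to 9312 bp). Longer domains tended to have shorter gaps, with 12899 bp at 1 to under 1.5 kb, 13481 bp at 1.5 to under 2 kb and 7316 bp at 4.5 to under 5 kb, and the part of span in this order was not tested. In each span class the gap was longer with H3K4me3 than without.

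The most isolated domain with H3K4me3 was 4882 bp long on chromosome 6 (110594838 to 110599719), with 421.9 kb to the next H3K27me3 domain and a score of 3100. The next were domains of 1149 bp on chromosome 13 (89678469 to 89679617) with 321.9 kb and of 1046 bp on chromosome 11 (30655129 to 30656174) with 279.5 kb. Both of these had low H3K27me3 scores, at 164 and 195. The least isolated were split from a neighbour only by the merging gap, at 3003 bp on chromosome 18 (69357515 to 69358707), 3004 bp on chromosome 11 (88942572 to 88943589) and 3005 bp on chromosome 1 (15276078 to 15279632).

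Among H3K4me3 regions, those at punctate domains lay between those of longer domains and those with no H3K27me3 in width and in the share at the top score. Regions whose longest H3K27me3 domain was 1 to under 5 kb numbered 2244, with a median width of 1807 bp and 45.9% at the top score (95% interval 43.8 to 48.0%). In domains of 5 kb or more the median width was 1613 bp and 30.7% were at the top score (29.3 to 32.2%). With no H3K27me3 these values were 2229 bp and 61.3% (60.5 to 62.1%), and with domains under 1 kb they were 1472 bp and 41.9%. The next H3K4me3 region was 30583 bp away by median at punctate domains, against 35252 bp for regions at domains under 1 kb, 14231.5 bp for regions in longer domains and 19118 bp for those with no H3K27me3.

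The domains with H3K4me3 were spread over all autosomes, with a mean density of 0.908 ± 0.155 per Mb (SD, 19 autosomes). Chromosome 16 was the sparsest at 0.692 per Mb and chromosome 11 the densest at 1.22 per Mb. Their share among domains of the span was 14.6 ± 2.28%, lowest on chromosome 7 at 11.2% and highest on chromosome 19 at 20.1%. Median gaps ran from 7193 bp on chromosome 17 to 20182 bp on chromosome 14, and without H3K4me3 from 5469 bp on chromosome 11 to 8870.5 bp on chromosome 3.

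**Figure D5:**
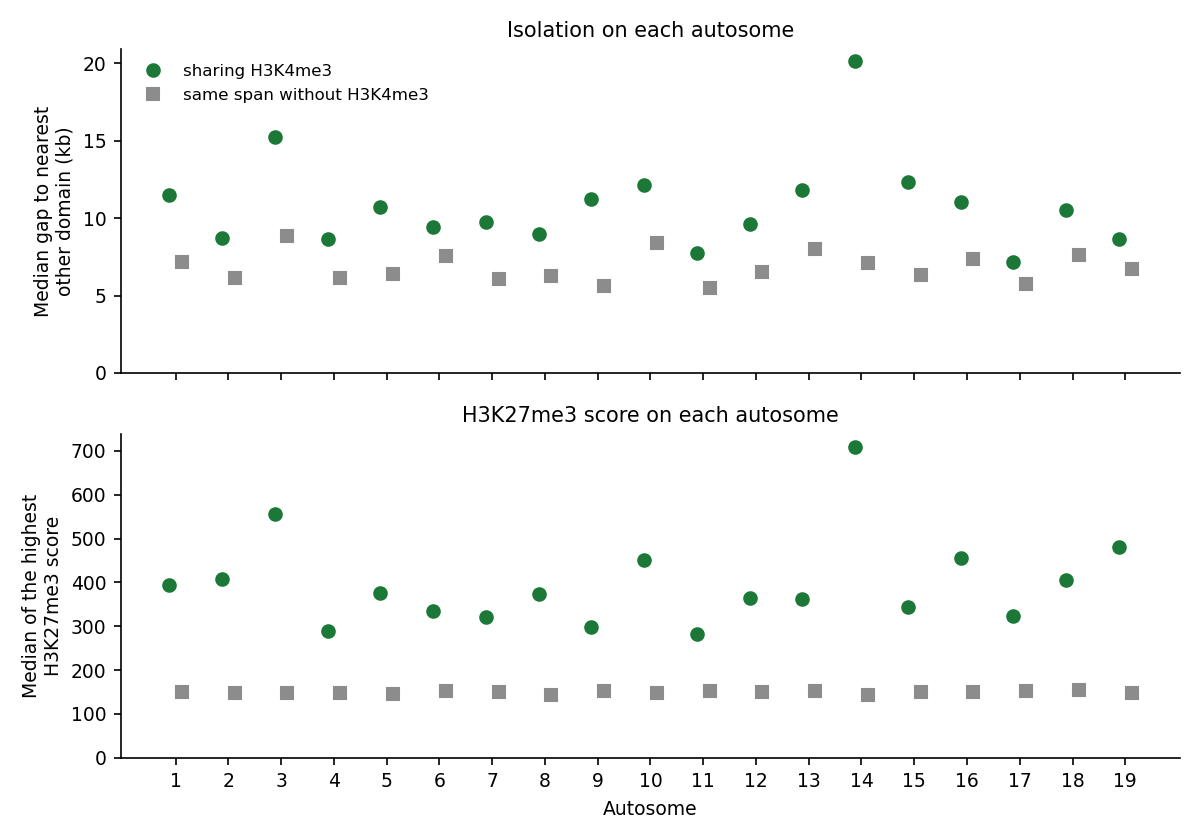
Median gap in kb to the nearest other H3K27me3 domain (top) and median of the highest H3K27me3 score in a domain (bottom) on each autosome, for punctate domains with H3K4me3 (green circles) and without it (grey squares). The green circle is the higher on all 19 autosomes in both panels, and chromosome 14 has the highest circle in both, at 20182 bp and 710.

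Chromosome 14 holds a crowded stretch at its start. Windows of 5 Mb held a median of 4 domains with H3K4me3, but the first windows of chromosome 14 held 15 and 29. These 44 domains lay between 3207701 and 8839842 and made up 55.7% of the domains of the span below 10 Mb on this chromosome. They were alike in H3K4me3 width but not in span, which ran from 1274 to 4507 bp. The H3K4me3 region was over 1.7 kb and under 2.4 kb wide at 41 of the 44 (93.2%), against 26.9% of all 2199, and the quartiles of its width were 1924 and 2190 bp. These width limits were not planned and enclose the quartiles of the same 44, so the contrast is a description only. The H3K27me3 domain took in 77.7% to 100% of it. Neighbouring centres were 121758 bp apart by median. The sequence of these places was not analysed here, and the sources do not say how reads that match several places were handled, so whether they are copies of each other was not tested.

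The side to which H3K4me3 was shifted also changed along the stretch. Up to the 18th domain the H3K4me3 centre lay at the higher coordinate in 17 of 18, and from the 19th on it lay at the lower coordinate in 20 of 26, a division made after the values were seen. Outside it the 91 other domains of chromosome 14 had a median gap of 12514 bp and a median score of 465. Without the stretch the difference in gap between domains with and without H3K4me3 was 3438 bp over all autosomes, and the difference in score was 220.

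A second crowded place lay on chromosome 18, where the window from 35 to 40 Mb held 24 domains with H3K4me3. It includes a row of 7 domains between 37089747 and 37136045, with centres 6196 to 9117 bp apart. They had nearly the same span, at 2574, 2492, 2541, 2648, 2534, 2536 and 2652 bp in order along the chromosome. Each was made of 2 H3K27me3 regions. In all 7 the H3K4me3 region, from 848 to 1344 bp wide, lay at the lower coordinate and touched only the first of the pieces. That piece scored 144, 134, 106, 172, 203, 86.4 and 139 along the row. The second piece, with no H3K4me3, scored 453, 557, 406, 778, 766, 834 and 389. The touched piece thus had the lower score in 7 of 7, unlike the 76.8% of domains of this kind in which it had the higher. It was also the narrower in all 7, at 595 to 1035 bp against 1279 to 1601 bp. The part of width in the score difference was not tested here. Whether the 7 are copies of each other was not tested either.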

How the data were processed

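Each mark has 1 list of called regions, deposited by the authors with a score per region and MACS names. The submitters' processing notes name Bowtie 1.1.2 and mm9. No source used here gives the MACS version, its threshold, a read filter or how the input was used. The score, as deposited, has a minimum of 50.01 for H3K4me3 and 50 for H3K27me3 and was used only within a list. Read depth is unknown, so no detection limit is given. Positions are on mm9, counted from 1.

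Domains were merged and intersected as the report opens. The gap is edge to edge to the nearest other domain. Shares have Wilson intervals, medians have exact binomial order-statistic intervals, and differences join them by the square-and-add method. No p-value was computed. Weighting to the same spans used classes of 500 bp. Named domains were the 3 highest in H3K27me3 score per arrangement (ties by larger shared part), the 3 most and least isolated, the 3 smallest and largest offsets, and those at the span limits. The places on chromosomes 14 and 18 were chosen after their values were seen, and the H3K4me3 width limits used on chromosome 14 were not planned. Members, lists and comparisons were chosen with earlier results of these data known. The planned gene lists and sequence composition were not analysed here, since the gene table and promoter sequences at hand are of GRCm38.p6.

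The tools were bedtools 2.31.1, which gave the same domain limits, shared base pairs and gaps (0 differences), and Python 3.11.15 with pandas 2.3.3, NumPy 2.4.6, matplotlib 3.10.9 and SciPy 1.17.1. The merging was also tested on simulated data.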

Additional observations from a re-analysis of the deposited data

Results flagged for a closer look

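The X chromosome lies outside the autosomes described above and holds domains of the same kind. By the same rule 73 of its 349 H3K27me3 domains of 1 to under 5 kb shared H3K4me3 (20.9%, 95% interval 17.0 to 25.5%), or 0.438 per Mb. Their median gap to another domain was 54880 bp, against 36465 bp without H3K4me3 on X. The median of the highest H3K27me3 score was 411 with H3K4me3 and 150 without, and the median centre offset was 316 bp.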

How the results depend on the processing

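The difference in gap to other H3K27me3, with minus without H3K4me3, was positive under all 14 alternatives (1550 to 9047.5 bp), as was the difference in highest score under all 9 (219.9 to 320). The alternatives all draw on the same lists and are not independent. Some were not planned: single-region domains, no other H3K4me3 within 50 kb, and the highest and lowest score classes. Also unplanned was leaving out the chromosome 14 stretch, or domains with both ends within 100 bp of those of H3K4me3. A merging gap of 1000 bp gave a sharing share of 12.0%, a width difference between the marks of 377 bp, a gap difference of 1550 bp and a score difference of 276. A merging gap of 5000 bp gave 16.4%, 368 bp and 4715.5 bp for the share, the width and the gap. With 50% of either mark shared, the share was 12.8%, the centre offset 447 bp, the shared part 89.9% of H3K4me3 and the score difference 268. With H3K27me3 scores of 100 or more, the share was 15.9%, the offset 442.75 bp, the width difference 261 bp, the gap difference 9047.5 bp, the score difference 320, and the difference in single-region domains turned to -3.41 percentage points. With H3K4me3 scores of 100 or more, the share was 13.4% and the width difference 375 bp. The gap difference was 4744 bp against comparison domains with H3K4me3 within 10 kb. Chosen after seeing the data, it was 8294.5 bp with no other H3K4me3 within 50 kb and 5422 bp in the highest score class, and the score difference was 307 in single-region domains. The cause of these moves was not tested. The alternatives on genes and sequence were not run. No paired analysis was possible because there is a single library for H3K27me3 and a single one for H3K4me3. With no read counts, weak regions near the lowest score cannot be ranked by precision.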
